A study of Homo sapiens with 8 samples.

Results

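The noncoding snoRNA host genes examined here were GAS5, SNHG1, SNHG3, SNHG5, SNHG6, SNHG7, SNHG8 and SNHG12. Their members were chosen by gene name, as all non-control probes that the array design assigns to 1 of these 8 genes, which gave 29 of the 50599 probes and 8 of the 36337 gene names on the array. SNHG5 had 18 of the 29, SNHG1, SNHG6, SNHG7 and SNHG8 had 2 each, and GAS5, SNHG3 and SNHG12 had 1 each. All 8 arrays came from FT293 cells, a HEK293 human embryonic kidney derivative in which Flp recombinase places a transgene at 1 genomic site and tetracycline switches it on. The 4 lines expressed GFP alone, GFP-HuR, GFP-TIA1 or GFP-TIAR, with 2 arrays for each line. RNA was prepared on day 3 of tetracycline treatment. The tagged proteins were made from the integrated transgene, in cells that also carry their own TIA1, TIAL1 and ELAVL1 genes, which encode TIA1, TIAR and HuR. No source says whether the 2 arrays of a line came from separate cultures, so the p-values measure the spread between these arrays, which may be technical.

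Small nucleolar RNAs (snoRNAs) guide chemical modification and processing of ribosomal RNA, and in human cells most are cut out of the introns of a host transcript. In most host genes the spliced exons encode a protein, often a ribosomal or translation factor. In the genes described here the exons encode none, and the spliced RNA is known to be short-lived in the cytoplasm, where nonsense-mediated decay is known to remove several of them. Transcripts of many host genes begin with a 5′ terminal oligopyrimidine (5′ TOP) tract, a C at the cap followed by an unbroken run of C and T, through which growth signals and TIA1 and TIAR are known to act on translation. The question these arrays can answer is whether the spliced host RNAs changed in amount with TIA1 or TIAR, since translation was not measured on them.

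The start of each host gene in the RefSeq table shows how far it carries such a tract. The 7 genes that the table holds are printed below on GRCh38.p14 as 30 bases each, 15 before and 15 from the annotated start, with the C and T bases that run on unbroken from the first transcribed base in capitals.
SNHG12 (chr1:28581859-28581888, minus strand): tcgcggcttcagcgcCCTTTCTCCCCgccg
SNHG5 (chr6:85678719-85678748, minus strand): gctgcgcacttcggtCTTTTacgtcggcct
SNHG7 (chr9:136728170-136728199, minus strand): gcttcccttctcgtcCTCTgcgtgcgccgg
SNHG1 (chr11:62855871-62855900, minus strand): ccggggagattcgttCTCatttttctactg
SNHG8 (chr4:118278747-118278776, plus strand): aaggcctcggcctttCacattcgggaagcg
SNHG3 (chr1:28505928-28505957, plus strand): cctcagtgagtttctgattctctaactgcg
GAS5 (chr1:173869031-173869060, minus strand): tgccatcatgaattcagatgtgtttatttt
The run was 11 bases long in SNHG12, 5 in SNHG5, 4 in SNHG7, 3 in SNHG1 and 1 in SNHG8. At SNHG3 and GAS5 the annotated first base was a purine, so no base is in capitals. A C followed by at least 4 more C or T bases, read on the transcribed strand from the annotated start alone, was present in 2 of these 7 genes (SNHG5 and SNHG12), in 15 of 28 protein-coding snoRNA host genes and in 4.1% of all 35116 starts in the table. An annotated start can lie some bases away from the one a cell uses, and a missing match says only that the letters are not at this position.

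The array reads these RNAs through 60-base probes. For SNHG5, the positions of the 18 probes on chromosome 6 (hg19, minus strand, as the array design gives them) fell into 3 blocks. There were 5 probes between 86387675 and 86387747, 3 between 86387513 and 86387577, and 10 between 86386823 and 86387201. Of the 16 probes that align without a gap, 15 overlap another, so the probes of a block are repeated readings of much the same stretch and not replicates. The exon junction in the last block is shown by A_23_P361085, which crosses it, and by A_19_P00322754, which stops at it. Capitals mark the 42 bases of the following exon.
SNHG5 A_19_P00322754 (chr6:86387142-86387201): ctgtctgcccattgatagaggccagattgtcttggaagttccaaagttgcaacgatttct
SNHG5 A_23_P361085 (chr6:86386868-86387159): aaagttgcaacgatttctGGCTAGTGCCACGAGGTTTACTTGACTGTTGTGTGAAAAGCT
A pair from the middle block shows how alike 2 probes can be, with the 59 bases that both carry in capitals.
SNHG5 A_19_P00322944 (chr6:86387513-86387572): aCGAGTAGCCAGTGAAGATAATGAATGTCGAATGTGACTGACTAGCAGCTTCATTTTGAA
SNHG5 A_19_P00321511 (chr6:86387513-86387571): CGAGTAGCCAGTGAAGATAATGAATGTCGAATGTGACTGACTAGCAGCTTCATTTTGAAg
The single SNHG12 probe also crosses a junction, since its 60 bases span 912 genomic bases (chromosome 1 from 28905179 to 28906090, hg19), and it reads spliced RNA. It is printed because it is the probe on which the SNHG12 result rests.
SNHG12 A_23_P74581: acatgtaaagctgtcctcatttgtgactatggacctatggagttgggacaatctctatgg

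Levels are given as the log2 of the scanner's processed intensity minus the 75th percentile of the same array, so that 0 is the 75th percentile of the array and a step of 1 is a doubling. The level of 1 probe was not set against that of another, because probes differ in how brightly they hybridize. Of the 29 probes, 26 could be followed on every array, being well above background on all 8 by the scanner's own mark and an outlier on none. The SNHG6 probe A_33_P3280930 was also well above background throughout, but its spot on GFP 1 was marked as an outlier and left out. The other two probes were designed on single expressed-sequence tags and gave little or no signal: the SNHG1 probe A_33_P3507562 was well above background on 0 arrays and the SNHG8 probe A_33_P3711426 on 1, GFP 1. These 2 were not tested in the main analysis, which left 27 probes of all 8 genes in each of its comparisons.

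Array GFP 1 stood apart from the other arrays. On it 86.1% of all probes were well above background and the mean local background was 90.0 intensity units, against 53.3% to 58.6% and 37.4 to 43.5 units on the other 7. Between the GFP arrays 15.7% of probes differed at least 2-fold, against 0.455% to 1.46% within the other lines. The level of 25 of the 26 host-gene probes measured on both GFP arrays was lower on GFP 1, with a median difference of -0.40, and the median over all 10721 probes with a mean level above 0 that were well above background throughout was -0.32. The label check was limited. The source name of array TIA1 2 gives its protein as GFP-TIA2, whereas its title gives GFP-TIA1. The TIAL1 probe A_23_P161488 read 4.89 and 5.01 in TIAR-expressing cells and 1.65 to 2.53 elsewhere, but the dim TIAL1 probe A_33_P3293869 read -4.1 and -3.83 in TIAR-expressing cells and -4.34 to -3.44 elsewhere. The TIA1 and ELAVL1 probes were not highest in their own lines, and the TIA1 probe A_24_P405430 fell against HuR by 0.97 with TIA1 (adjusted p = 0.0047) and by 1.57 with TIAR (adjusted p = 0.0088) on the log2 scale. Whether these probes lie in the expressed part is not known. Of 10 probes for 6 HEK293 markers, 8 were well above background on all 8 arrays, among them at least 1 each for VIM, KRT18, KRT8, NEFL and PAX2, while the NEFM probe was so on 7 and the second PAX2 probe on 2. Against HuR, 1 of the 9 marker probes tested rose and 3 fell with TIA1 (limma), where 24.4% of all probes rose and 17% fell. With TIAR 3 rose and 2 fell, where 18.3% and 12.2% did. NEFL, a neurofilament subunit, fell with TIA1 (-1.39, adjusted p = 0.0028) and with TIAR (-1.68, adjusted p = 0.005). NEFM, another subunit, also fell (-0.73, adjusted p = 0.012, and -1.05, adjusted p = 0.009). Of 11 probes for markers of blood, liver, fibroblast and endothelial cells, 2 were well above background on all 8 arrays, and these, 1 each for PTPRC and COL1A1, read 1.13 and 1.37 on GFP 1 against -4.65 to -1.2 elsewhere. The ALB probe read -3.11 to -2.74 in the TIA1 and TIAR lines and -3.52 on GFP 1, but -6.02 to -5.42 in the HuR line and on GFP 2, and the COL1A1 probe was also higher in both TIA lines (-1.62 to -1.2) than in the HuR line (-2.37 and -2.33). The part of these signals in the results was not tested.

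**Figure D1:**
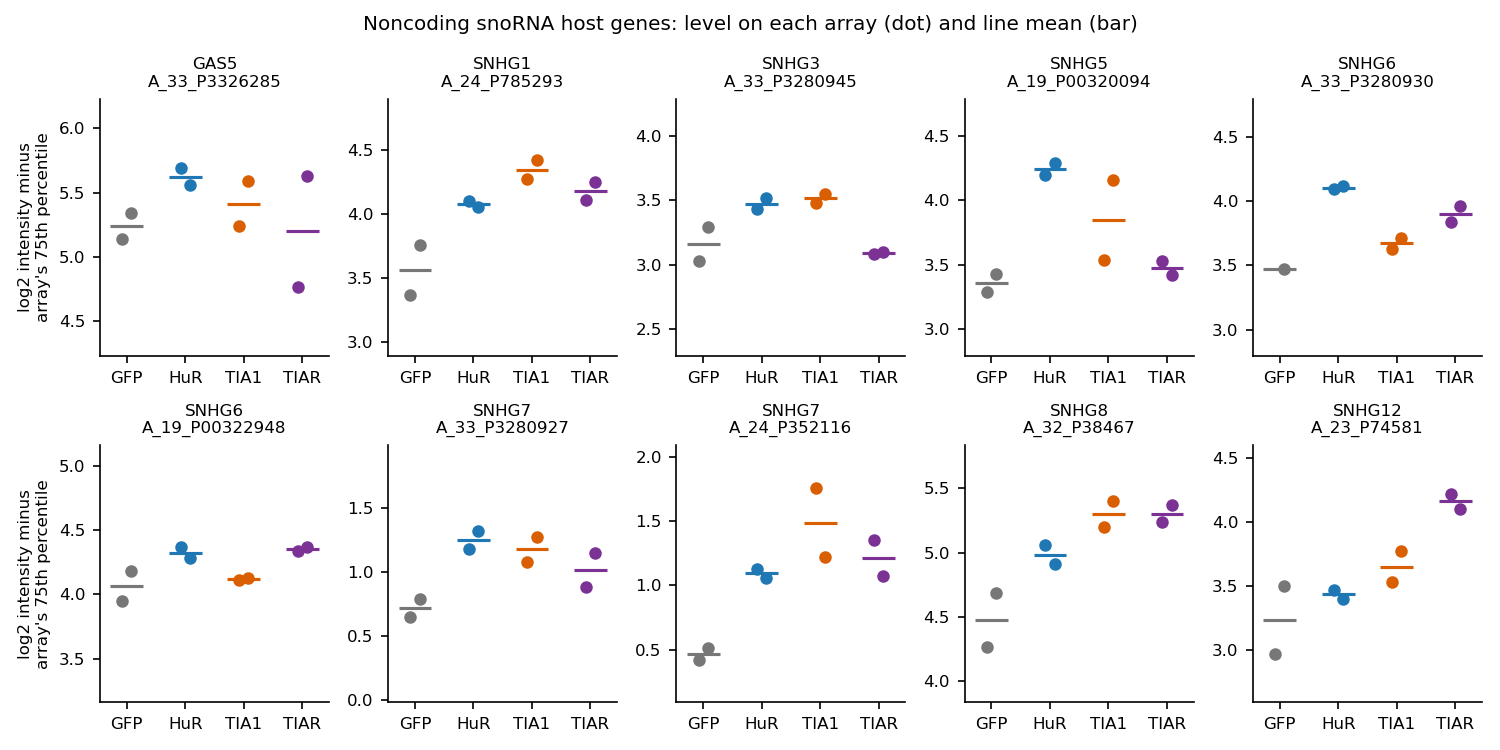
Log2 level relative to the array's 75th percentile (y axis, each panel with its own range of 2 log2 units) in the GFP, HuR, TIA1 and TIAR lines for the tested probes of the 8 host genes, with SNHG5 shown by A_19_P00320094 alone. Dots are arrays, bars are line means, and SNHG6 A_33_P3280930 has 1 GFP dot because the other spot was an outlier. SNHG12 is highest in both TIAR arrays (4.22 and 4.10), while SNHG5 and SNHG3 are lower in both TIAR arrays than in both HuR arrays.

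TIAR- and HuR-expressing cells were compared to ask whether TIAR changed the RNAs relative to another RNA-binding protein expressed the same way. SNHG5 RNA was lower and SNHG12 RNA higher in TIAR-expressing cells. Of the 27 probes, 10 fell and 1 rose at an adjusted p under 0.05 (limma, Benjamini-Hochberg over all probes tested), where 12.2% of all 29097 probes tested fell and 18.3% rose. No host-gene probe passed with a change of at least 2-fold (0 of 27), against 10.1% of all probes. The median log2 difference of the 27 probes was -0.48, against 0.06 over all probes and -0.02 over the bright probes described above. That median was set by SNHG5, and over the 9 probes of the other genes it was 0.03.

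SNHG5 is the host of SNORD50A and SNORD50B. The arrays read RNA of whole cultures, in which fewer cells with a transcript and less of it per cell cannot be told apart. On the probe A_19_P00320094, at the 5′ end of the probed region, the level was 4.20 and 4.29 in HuR-expressing, 3.53 and 3.42 in TIAR-expressing, 3.54 and 4.16 in TIA1-expressing and 3.29 and 3.43 in GFP-expressing cells. The TIAR and HuR arrays did not overlap, and the TIAR arrays lay close to the GFP arrays. The log2 difference between TIAR and HuR was -0.77 (95% interval -1.05 to -0.48, adjusted p = 0.013 from limma). On A_19_P00316659, in the last block, the level was 5.63 and 5.64 in HuR-expressing, 5.02 and 5.02 in TIAR-expressing, 5.35 and 5.34 in TIA1-expressing and 4.58 and 5.27 in GFP-expressing cells. Here the arrays of HuR-, TIA1- and TIAR-expressing cells were separated in that order, and the GFP arrays spanned the TIAR values. The difference was -0.62 (-0.87 to -0.37, adjusted p = 0.016).

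Every SNHG5 probe pointed the same way in this comparison. The log2 differences ran from -1.08 to -0.32 with a median of -0.55, and 9 of the 18 passed the test, each of them lower. On 18 of the 18 probes both TIAR arrays lay below both HuR arrays, as they did for 30.8% of all probes. The decrease was seen in all 3 blocks: 2 of 5 probes passed in the first block (median -0.77), 2 of 3 in the second (-0.57) and 5 of 10 in the last (-0.52). The widest difference, -1.08 on A_19_P00317178, did not pass (95% interval -1.96 to -0.20, adjusted p = 0.071), since its TIAR arrays read 1.87 and 2.73 and its HuR arrays 3.24 and 3.53. The junction probe printed above, A_23_P361085, read 5.21 and 6.27 in TIAR-expressing and 6.67 and 6.52 in HuR-expressing cells, a difference of -0.86 that did not pass either (adjusted p = 0.16). Of the pair sharing 59 bases, A_19_P00322944 had a difference of -0.57 and A_19_P00321511 of -0.79, and both passed.

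**Figure D2:**
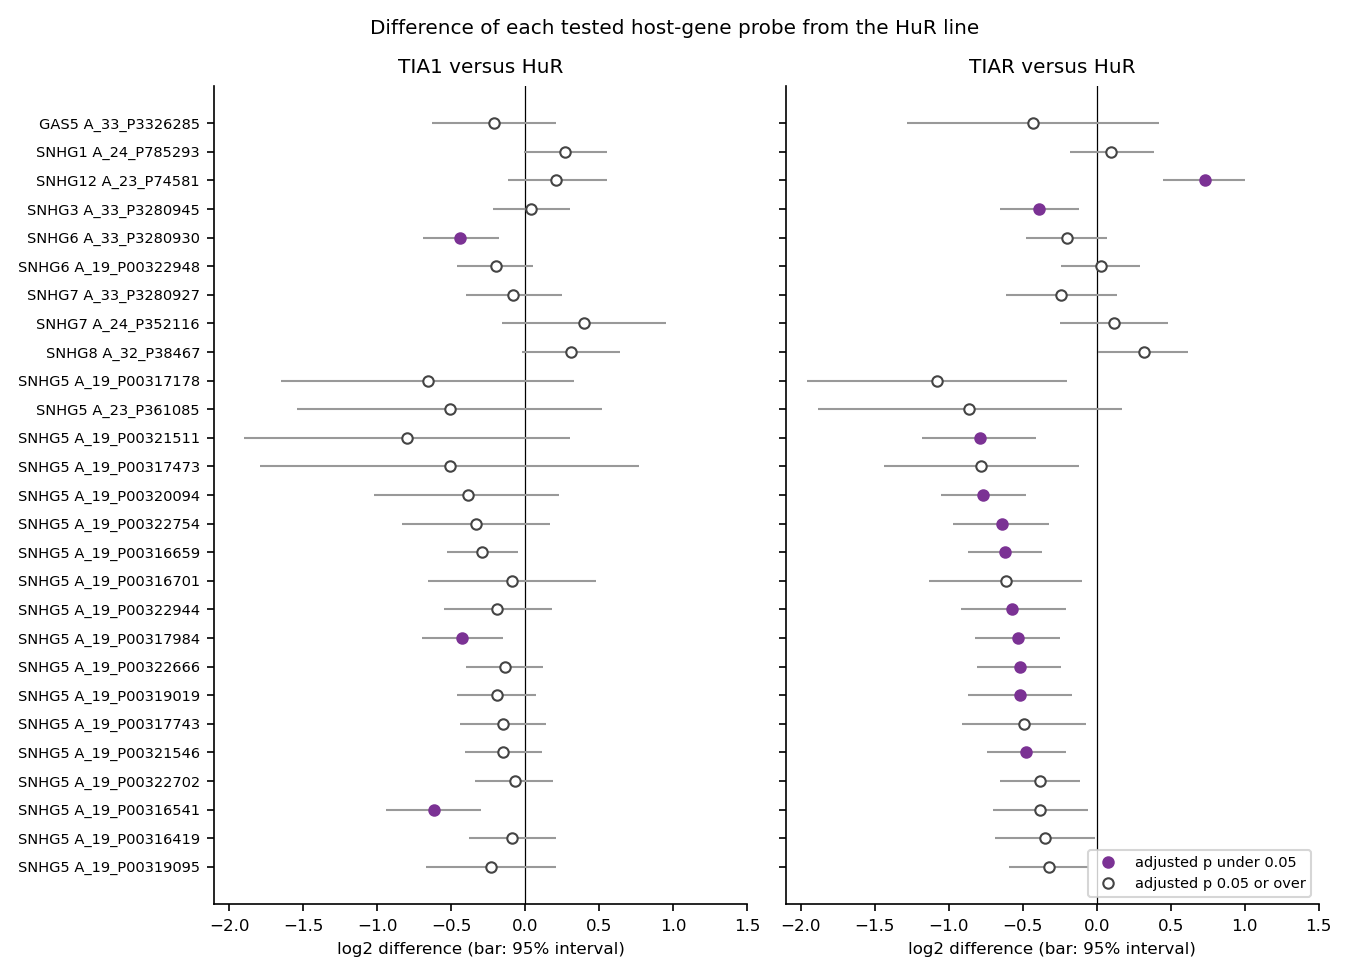
Log2 difference of TIA1-expressing (left) and TIAR-expressing (right) from HuR-expressing cells (x axis) for the 27 tested probes (y axis), with 95% intervals as grey bars and filled points for an adjusted p under 0.05 (limma). The 18 SNHG5 probes in the lower rows lie to the left of 0 in both panels, and SNHG12 in the right panel is the only filled point to the right of 0.

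SNHG12 hosts 4 snoRNAs with probes on the array. Its probe read 4.22 and 4.10 in TIAR-expressing, 3.47 and 3.40 in HuR-expressing, 3.53 and 3.77 in TIA1-expressing and 2.97 and 3.50 in GFP-expressing cells. Both TIAR arrays lay above the arrays of every other line. The log2 difference from HuR was 0.73 (standard error 0.10, 95% interval 0.45 to 1.00, adjusted p = 0.014 from limma), a 1.65-fold increase. SNHG3, the host of SNORA73A and SNORA73B, read 3.08 and 3.1 in TIAR-expressing and 3.43 and 3.52 in HuR-expressing cells. Its difference of -0.39 (-0.65 to -0.12, adjusted p = 0.049) stood close to the threshold. It passed in 3 of 16 other settings, with values of -0.43 to -0.17 over them and the smallest in the authors' normalized values (adjusted p = 0.22). The SNHG12 call passed in 11 of the 16, with values of 0.67 to 0.84.

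The remaining host genes did not pass in this comparison. GAS5, a growth-arrest transcript that hosts SNORD44, SNORD47 and SNORD74 to SNORD81, read 4.77 and 5.63 in TIAR-expressing and 5.69 and 5.56 in HuR-expressing cells. The 2 TIAR arrays were 0.86 apart, so the difference of -0.43 has an interval of -1.28 to 0.42. The interval was 0.01 to 0.62 around 0.32 for SNHG8 (adjusted p = 0.10) and -0.18 to 0.39 around 0.10 for SNHG1. For SNHG6 the probe A_19_P00322948 differed by 0.03 (-0.24 to 0.29) and A_33_P3280930 by -0.20 (-0.48 to 0.07). For SNHG7, A_24_P352116 differed by 0.12 (-0.25 to 0.48) and A_33_P3280927 by -0.24 (-0.61 to 0.14). All of these intervals lie within 2-fold except that of GAS5.

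The calls against HuR rested on having both HuR arrays. Without HuR 1 the TIAR comparison had 0 calls among host-gene probes and 0 of 30023 over the whole array by limma, where 8472 probes still had an unadjusted p under 0.05. Without HuR 2 it had 0 calls among host-gene probes and 473 higher and 146 lower probes over the array. Testing all 50599 probes with no filter on dim ones, or fitting all 8 arrays at once, also left 0 calls among host-gene probes. Direction could not change with either HuR array left out, because both TIAR arrays lay below both HuR arrays on 18 of 18 SNHG5 probes. The median of these probes was -0.49 without HuR 1 and -0.57 without HuR 2.

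TIA1- and HuR-expressing cells were compared in the same way. Of the 27 probes, 0 rose and 3 fell (limma, adjusted p under 0.05), against 24.4% and 17% of all 28740 probes tested. None changed at least 2-fold (0 of 27), against 13.4% of all probes. The median log2 difference was -0.19, with 0.09 over all probes, 0.01 over the bright probes and 0.04 over the 9 probes outside SNHG5.

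The 3 probes that fell belong to SNHG5 and SNHG6. On SNHG5 A_19_P00316541, in the first block, the level was 3.50 and 3.71 in TIA1-expressing and 4.17 and 4.28 in HuR-expressing cells, with 3.93 and 3.75 in TIAR-expressing and 3.02 and 2.87 in GFP-expressing cells. The lines were separated in the order HuR, TIAR, TIA1, GFP, and the difference between TIA1 and HuR was -0.62 (95% interval -0.94 to -0.30, adjusted p = 0.02). The neighbouring A_19_P00317984 read 3.95 and 3.81 in TIA1-expressing and 4.34 and 4.27 in HuR-expressing cells, a difference of -0.43 (adjusted p = 0.035). For SNHG6, the host of SNORD87, the probe A_33_P3280930 read 3.63 and 3.71 in TIA1-expressing and 4.09 and 4.12 in HuR-expressing cells. It fell by 0.44 on the log2 scale (-0.69 to -0.18, adjusted p = 0.026), while the other SNHG6 probe, A_19_P00322948, read 4.11 and 4.13 against 4.37 and 4.28 and had a difference of -0.20 (-0.46 to 0.05) that did not pass.

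Within SNHG5 the TIA1 differences were -0.80 to -0.07 with a median of -0.26. Both TIA1 arrays lay below both HuR arrays on 11 of the 18 probes, as they did for 32% of all probes. The 2 calls lay in the first block, where the median was -0.51, against -0.19 and -0.17 in the second and last. The TIA1 arrays were unequal on several of these probes. On A_19_P00321511, for example, they read 4.52 and 5.68, while A_19_P00322944, with which it shares 59 bases, read 5.59 and 5.79 on the same arrays. Without TIA1 1, 15 of the 18 SNHG5 probes were below 0 and the median was -0.12, and without TIA1 2 all 18 were, with a median of -0.36. Leaving out either HuR array removed the 3 calls.

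**Figure D3:**
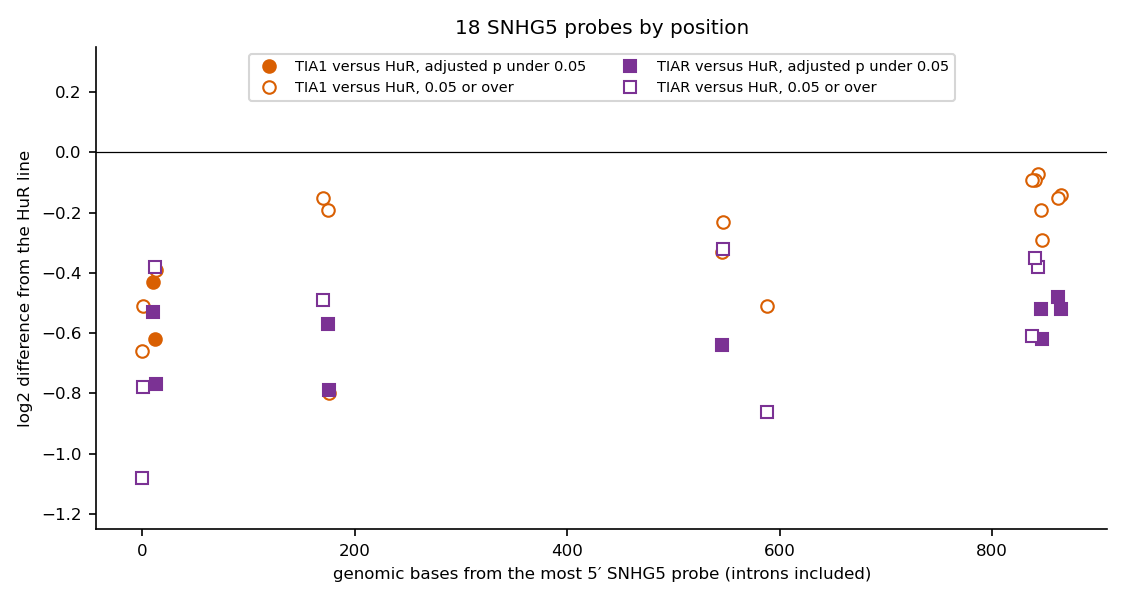
Log2 difference from HuR-expressing cells (y axis) of the 18 SNHG5 probes against the genomic distance of each probe's 5′ end from the most 5′ probe (x axis, bases, introns included). Squares are TIAR and circles TIA1, filled where the adjusted p from limma was under 0.05. All points lie below 0, and the first block, at a distance of 0 to 13 bases, holds both filled circles.

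Of the 9 probes outside SNHG5, the SNHG6 probe above was the one that passed in this comparison. SNHG1, host of SNORD22 and SNORD25 to SNORD31, read 4.27 and 4.42 in TIA1-expressing and 4.10 and 4.05 in HuR-expressing cells. Its difference of 0.27 has an interval of -0.01 to 0.55 (adjusted p = 0.11). SNHG8, host of SNORA24, read 5.20 and 5.40 against 5.06 and 4.91, a difference of 0.31 (-0.02 to 0.64, adjusted p = 0.11). Neither of these probes passed, where 24.4% of all probes tested rose. SNHG12 differed by 0.21 (-0.12 to 0.55), SNHG3 by 0.04 (-0.22 to 0.30) and GAS5 by -0.21 (-0.63 to 0.21). The SNHG7 probes differed by 0.40 (-0.16 to 0.95) and -0.08 (-0.40 to 0.25).

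The direct comparison of TIAR- with TIA1-expressing cells gave 0 calls among the 27 probes at an adjusted p under 0.05 by limma. Over all 28062 probes tested 1.74% rose, 1.73% fell and 2.35% passed with at least 2-fold. At an unadjusted p under 0.05 there were 7 of the 27 host-gene probes and 6655 of all 28062 probes. SNHG12 was 0.51 higher (0.14 to 0.89, adjusted p = 0.12) and SNHG3 0.43 lower (-0.72 to -0.14, adjusted p = 0.11) in TIAR-expressing cells. The SNHG5 differences ran from -0.52 to 0.23. The changes seen against HuR are therefore not shown to differ between TIA1 and TIAR.

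GFP-expressing cells were the control without an RNA-binding protein, but the spread between the GFP arrays left no call on the whole array. For HuR, TIA1 and TIAR alike, 0 of the 27 probes passed, with a background of 0% for increases, decreases and 2-fold changes. At an unadjusted p under 0.05 there were 11, 6 and 5 host-gene probes and 4881, 5984 and 4602 of all probes for HuR, TIA1 and TIAR, respectively. Relative to GFP the 27 probes had median log2 differences of 0.64 in HuR-, 0.43 in TIA1- and 0.15 in TIAR-expressing cells, where the bright probes had 0.14, 0.15 and 0.12.

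HuR-expressing cells had the most even shift. All 27 probes were above GFP, by 0.20 to 1.41. On 18 of 18 SNHG5 probes the HuR mean was the highest of the 4 lines, and on 15 the means followed the order HuR, TIA1, TIAR, GFP. The shares of all probes above GFP or in these orders were not counted, so such counts have no base rate here. The SNHG5 probes also overlap, and GFP 1 read lower than GFP 2 on bright probes in general (median -0.32). With GFP 2 as the only control array, whose spread is then assumed to be like that of the other line, 7 of the 27 probes were higher in HuR-expressing cells (limma, adjusted p under 0.05), against 11.2% of all probes. Of these 7, 5 belonged to SNHG5, 1 to SNHG6 and 1 to SNHG7. On SNHG5 A_19_P00316541, for instance, the difference from GFP 2 was 1.36 (adjusted p = 0.019). All 18 SNHG5 probes remained above GFP 2, by 0.08 to 1.36.

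Set against GFP 2 alone, TIA1-expressing cells had 1 higher probe of 27, an SNHG5 probe (0.88 on A_19_P00316419, adjusted p = 0.048), where 8.51% of all probes rose. TIAR-expressing cells had 0 of 27 by limma, where 4.79% rose. The SNHG5 probes had a median difference from GFP 2 of 0.48 in HuR-, 0.20 in TIA1- and -0.16 in TIAR-expressing cells. SNHG12 differed from GFP 2 by 0.66 in TIAR-expressing cells (adjusted p = 0.10), 0.15 with TIA1 and -0.06 with HuR. Leaving out GFP 2 in place of GFP 1 gave 21 higher and 1 lower probe of 28 for HuR, where 9.95% of all probes rose and 49% fell. It gave 4 higher and 1 lower for TIA1, where 4.81% rose and 40.7% fell, and the same counts for TIAR, where 3.9% rose and 38.6% fell. The 28 probes include the SNHG8 probe A_33_P3711426, which was well above background on GFP 1 only. It read -3.69 there and -8.14 to -7.08 on the other arrays. It therefore entered only through the array on which it was high, and no conclusion is drawn from its lower call. The SNHG6 probe A_33_P3280930 is also counted, but without a GFP 1 value it could give no difference. The comparisons with GFP share the GFP arrays with each other and the HuR arrays with the comparisons above.

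**Figure D4:**
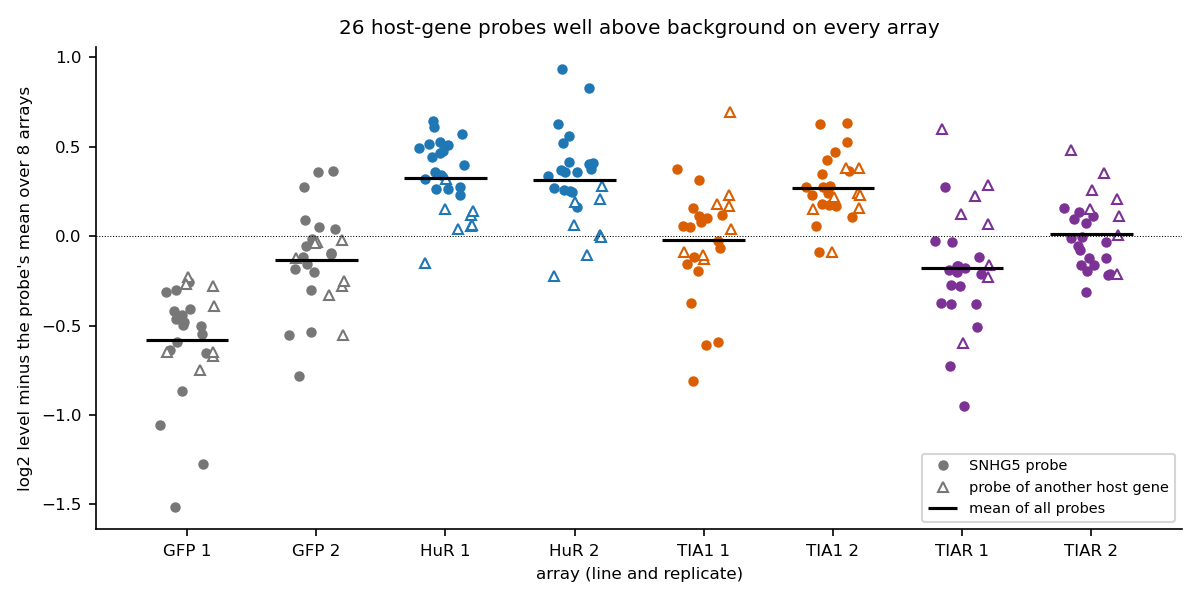
Level of the 26 host-gene probes measured on every array, each minus its own mean over 8 arrays (y axis, log2), by array (x axis). Filled dots are the 18 SNHG5 probes, open triangles the 8 probes of other host genes, and the bar is the mean of all 26. The mean was -0.58 on GFP 1 and -0.14 on GFP 2, 0.33 and 0.31 on the HuR arrays, -0.02 and 0.27 on the TIA1 arrays and -0.18 and 0.01 on the TIAR arrays.

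The snoRNAs within these genes were measured by 28 probes for 27 snoRNAs. Against HuR, 2 rose and 9 fell in TIA1-expressing cells and 1 rose and 7 fell in TIAR-expressing cells, with medians of -0.20 and -0.29. The share that fell was 32.1% with TIA1 and 25% with TIAR, where 17% and 12.2% of all probes fell. The share that rose was 7.14% and 3.57%, where 24.4% and 18.3% of all probes rose. With probes required on all 4 arrays, 8 of 27 fell with TIA1 and 6 of 26 with TIAR, while 2 and 1 rose. The labelling kit copies RNA from its poly(A) tail, which a mature snoRNA lacks, and whether these probes read the snoRNA or intron-containing host RNA was not tested. For SNHG5, SNORD50B read -0.46 and -0.44 in HuR-expressing, -1.19 and -1.13 in TIA1-expressing, -1.68 and -1.29 in TIAR-expressing and -0.72 and -0.52 in GFP-expressing cells. Both TIA lines lay below HuR and GFP on every array, and the log2 difference from HuR was -0.72 for TIA1 (adjusted p = 0.008) and -1.03 for TIAR (adjusted p = 0.018).

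In GAS5, some snoRNA probes passed where the host probe did not. Of the 8 snoRNA probes within GAS5, 5 fell and 1 rose in TIA1-expressing cells, and 3 fell in TIAR-expressing cells, whereas the GAS5 probe passed in neither. SNORD47 read 1.24 and 1.21 in HuR-expressing, 0.07 and -0.08 in TIA1-expressing, 0.20 and 0.01 in TIAR-expressing and 0.58 and 0.79 in GFP-expressing cells. Its log2 difference from HuR was -1.23 with TIA1 (adjusted p = 0.0037) and -1.12 with TIAR (adjusted p = 0.0079), and every TIA array lay below every other array. SNORD80 had a difference of -1.35 with TIA1 (adjusted p = 0.017) and of -0.80 with TIAR (adjusted p = 0.087). The log2 difference of the GAS5 probe from HuR was -0.21 with TIA1 and -0.43 with TIAR. The medians of its 8 snoRNA probes were -0.71 and -0.80. The interval of the GAS5 probe contains that median with TIAR (-1.28 to 0.42) but not with TIA1 (-0.63 to 0.21). The difference between a snoRNA probe and its host probe was not itself tested.

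In SNHG12 the snoRNA probes went in both directions. SNORA44, named here after its values were seen, rose in TIAR-expressing cells by 0.75 (adjusted p = 0.015) and SNORA61, also named afterwards, fell by 0.79 on the log2 scale (adjusted p = 0.01), while the host probe rose. The 8 snoRNA probes within SNHG1 and the 3 within SNHG3 had no call in either comparison. SNORA24, in SNHG8 and also named afterwards, had a difference of -0.77 with TIA1 that passed (adjusted p = 0.016 from limma). With TIAR its difference of -0.77 did not pass (adjusted p = 0.14). The SNHG8 probe had differences of 0.31 and 0.32, and passed in neither comparison. SNORA17 and SNORA43 could not be placed within a host gene by symbol. SNORD87, in SNHG6, fell with TIA1 (-0.80) and with TIAR (-0.51), and was also named afterwards. The call of SNORD47 with TIA1 held in 15 of 16 other settings and that of SNORD50B with TIAR in 11 of 16. Without HuR 1 and without HuR 2, respectively, 2 and 1 of the 9 lower snoRNA calls with TIA1 were left, and 0 with TIAR.

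Other genes of the pathway were read from lists chosen for their function, to be set against the 24.4% of all probes that rose and 17% that fell with TIA1 and the 18.3% and 12.2% with TIAR. Of 26 probes for 11 other noncoding snoRNA hosts, 9 rose and 6 fell with TIA1 and 6 rose and 6 fell with TIAR, all against HuR, with medians of 0.29 and 0.30. These are 34.6% and 23.1% of the list with TIA1 and 23.1% each way with TIAR. The SNHG4 probes disagreed. A_33_P3280916, a dim probe that was not well above background on HuR 2, rose by 1.51 with TIA1 (adjusted p = 0.026) and 1.63 with TIAR (adjusted p = 0.024), but its differences were 0.28 and 0.19 in the authors' normalized values. The other SNHG4 probe, A_21_P0000661, fell by 0.57 (adjusted p = 0.015) and 0.84 (adjusted p = 0.026). Of 79 probes for 33 protein-coding hosts, 13 rose and 7 fell with TIA1 and 1 rose and 10 fell with TIAR, with medians of 0.09 and -0.02. With TIA1 both shares (16.5% and 8.86%) were below those of all probes, and with TIAR 1.27% rose and 12.7% fell, the latter near the share of all probes. EIF4A2, an RNA helicase of translation initiation, fell with TIA1 (-1.35, adjusted p = 0.017) and with TIAR (-0.98, adjusted p = 0.0075). HSPA8, a heat shock cognate chaperone, fell on its 3 probes in both comparisons. The drop was up to 1.24 on the log2 scale with TIA1 (limma, adjusted p = 0.0088) and up to 1.03 with TIAR (adjusted p = 0.024). These values come from the dim probe A_33_P3346688, whose differences were as small as -0.57 and -0.46 in other settings. Its bright probe A_33_P3390758 read 5.29 and 5.33 with HuR, 4.95 and 4.84 with TIA1 and 4.74 and 4.82 with TIAR.

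Of 19 probes for 15 snoRNP proteins and assembly factors, 2 rose and 7 fell with TIA1 and 1 rose and 6 fell with TIAR, with medians of -0.29 and -0.37. The share that fell was 36.8% and 31.6%. RUVBL1, an ATPase of the complex that assembles snoRNPs, fell by 1.40 with TIA1 (adjusted p = 0.0036) and by 1.01 with TIAR (adjusted p = 0.011) on the log2 scale. NOP56, a core protein of box C/D snoRNPs and itself a snoRNA host, decreased by 1.63 on 1 probe with TIA1 (adjusted p = 0.018), while its other two probes had differences of 0.32 and 0.07 that did not pass. Of 30 probes for 14 nonsense-mediated decay factors, 5 rose and 3 fell with TIA1 and 4 rose and 2 fell with TIAR, with medians of 0.11 and 0.05. The shares (16.7% and 10%, and 13.3% and 6.67%) were below those of all probes. CASC3, a subunit of the exon junction complex, was higher in both (1.20, adjusted p = 0.0067, and 1.07, adjusted p = 0.0096), and 1 probe of UPF3A, a factor that binds the junction complex, was lower with TIAR (-1.40, adjusted p = 0.018). The other UPF3A probe, A_32_P226567, went the other way and was higher with TIA1 (0.60, adjusted p = 0.044) and with TIAR (0.45, adjusted p = 0.034).

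The pattern of the host genes over the 8 arrays was shared most closely by probes of SRP72, KTI12, THEM4, FBRS and ATP6V1E1, with Pearson's r of 0.98 to 0.974 between each probe and the mean host-gene profile. These 5 were the highest among all other probes well above background on every array, and the profile holds the low GFP 1 array that many probes share.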

How the data were processed

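RNA of the 4 lines was read on 8 one-colour human Agilent arrays of a single slide, 2 for each line. The deposited scanner files hold intensities that the Feature Extraction software of the authors' scanner had corrected for local background and spatial trends (the processed signal), not normalized between arrays. The authors also deposited a table of normalized log2 values, used as an alternative. Its column medians were 7.23 to 7.24 for GFP, HuR and TIA1 and 7.08 for both TIAR arrays, and how it was normalized is not given in the sources used here. For the main values the 75th percentile of each array's non-control spots, without those marked as outliers, was brought to 0 on the log2 scale. Repeated spots were then averaged per probe, again without those marked as outliers. A probe entered a comparison if 1 of its lines had it well above background on both arrays. Such probes were tested with limma 3.58.1 (R 4.3.3), on the 4 arrays of each of 6 comparisons, with Benjamini-Hochberg adjustment over all probes tested. A call is an adjusted p under 0.05. The test was checked on simulated data for TIA1 and TIAR against HuR, with 200 changes of log2 size 1 or 2 added. With 1 spread for all probes 100 of each size were recovered, with 5 and 15 false calls, respectively. With each probe's own spread 3 of size 1 and 52 of size 2 were recovered for TIA1. For TIAR 1 and 48 were, with 0 false calls in both. A probe that did not pass may therefore still have changed. Precision is limited by the 2 arrays of a line.

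All host-gene probes were reported. From the lists of other genes, values were given for probes that passed with at least 2-fold in a comparison with HuR, at most 4 in a list, and for other probes of the same genes. The host genes and the lists were chosen with earlier results of these data known. RefSeq sequences were matched by symbol and are on GRCh38.p14, whereas the array design uses hg19, and the coordinates were not converted.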

Additional observations from a re-analysis of the deposited data

How the results depend on the processing

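The 14 calls among host-gene probes (3 with TIA1 and 11 with TIAR, each against HuR) kept their direction in every setting tried. Settings that change only the filter or the fit leave the log2 difference as it is. A direction could therefore change only with another normalization or a left-out array. Of the 14, 14 still passed with the arrays centred on the median or with probes required on all 4 arrays, 13 with quantile normalization, 12 with normexp background correction or with array weights, 10 with normexp and quantile normalization and 8 in the authors' normalized values. For TIA1 against HuR the count of calls became 5 with normexp and quantile normalization and 1 with all 8 arrays in one fit. For TIAR against HuR it became 6 in the authors' values and 0 with all 8 arrays in one fit. With no filter on dim probes both counts were 0, while the whole array still gave 3137 higher and 1496 lower probes with TIA1 and 1998 and 733 with TIAR, against 7020 and 4887 and 5337 and 3561 in the main analysis. The cause was not tested.

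Leaving out 1 array at a time gave 0 to 7 calls for TIA1 and 0 to 12 for TIAR against HuR, with 0 in both whichever HuR array was left out. Without HuR 1 and without HuR 2 the whole array had 1745 higher and 882 lower and 1651 higher and 892 lower probes for TIA1, respectively. The GFP comparisons had 0 calls in the main analysis. Without GFP 2, their counts include the SNHG8 probe A_33_P3711426, which entered only through GFP 1. Leaving out 1 array gave 0 to 5 for TIA1, 0 to 5 for TIAR and 0 to 22 for HuR, and all 8 arrays in one fit gave 6, 4 and 3. The host-gene calls of that one fit were all higher than GFP. Over the whole array it gave 2970 higher and 2236 lower of 28052 probes for TIA1. For TIAR it gave 1930 and 1283 of 28617, and for HuR 789 and 1122 of 28879. Quantile normalization shifted the log2 differences of all probes tested by a median of 0.28 for HuR, 0.15 for TIA1 and 0.17 for TIAR against GFP.

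Arrays with the same replicate number did not deviate together, with correlations of -0.09 to 0.18, so the number was not taken as a pairing. With it as a replicate block there was 1 call for TIA1 and 7 for TIAR against HuR, and 6 of the 14 passed. The methods' t-test, which pairs the arrays, gave before adjustment 4 for TIA1 and 4 for TIAR against HuR (6121 and 4923 of all probes), 3, 2 and 2 for TIA1, TIAR and HuR against GFP (2173, 2025 and 1834), and 8 for TIAR against TIA1 (3619). After adjustment it gave 0 calls for TIA1 and 0 for TIAR against HuR.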
